A study of Mus musculus with 4 samples.

Results

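Chemokine receptors steer T cells through the body, and the receptors treated here are 9 that mark T cell subsets or their tissue routes: Ccr4, Ccr6, Ccr8, Ccr9, Cxcr3, Cxcr4, Cxcr5, Cxcr6 and Gpr15. They were taken by gene symbol, and each of the 9 matched 1 of the 47729 Ensembl gene IDs of the count table. The labels give spleen of C57BL/6 mice as the source, and the methods give naive CD4 T cells purified from spleen and lymph nodes. These cells were turned in culture into induced regulatory T (iTreg) cells, which are CD4 T cells in which TGF-β switches on Foxp3, the lineage factor of regulatory T cells. Every culture held TGF-β at 5 ng/mL, IL-2 at 100 U/mL and antibodies against IL-4 and IFN-γ at 5 µg/mL each. The FeSO4 group received ferrous sulfate at 50 µM and the Mock group received PBS, both for 4 days. Each group had 2 libraries, replicates 1 and 2. The methods describe the samples as pairs from independent experiments, and the cells stayed in culture, so the values bear on mRNA and no migration was measured. The labels give neither the age of the mice nor a genetic modification.

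A chemokine receptor is a protein with several passes through the membrane that couples to inhibitory G proteins. When its ligand binds, the G protein βγ subunits activate phosphoinositide 3-kinase γ and Rac, the cell moves up the gradient, and receptor kinases and arrestins then end the signal. Ccr4 and Ccr8 are carried by type 2 helper cells and by regulatory T cells in skin and other tissues. Ccr9 and Gpr15 lead lymphocytes to the small intestine and to the colon, Ccr6 marks cells of the type 17 program, Cxcr3 those of the type 1 program and Cxcr5 those that enter B cell follicles. Cxcr6 is found on T cells held in tissues, and Cxcr4 binds Cxcl12, which retains cells in bone marrow.

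The gene rows held between 35183187 and 40859178 reads per library, so that a count of 3, the limit that a count of 0 allows, stood for 0.0717 to 0.0875 CPM (counts per 1000000 reads of a library, scaled by TMM, a normalization that equalizes libraries on the bulk of their genes). Such limits cover counting error only. The T cell markers were present in every library, with Cd3e at 303 to 346 CPM and Cd4 at 605 to 683 CPM. Foxp3 was at 586 and 693 CPM in Mock and at 375 and 471 CPM in FeSO4, and fell by 0.60 ± 0.09 on the log2 scale (SE, Benjamini-Hochberg or BH-adjusted p = 0.000469). In bulk RNA, fewer cells that express a gene and less of its mRNA per cell cannot be told apart. Naive T cell markers were high in every library, with Lef1 lower in FeSO4 (log2 fold change -0.36 ± 0.08, SE, BH-adjusted p = 0.00629) and Tcf7 higher (0.26 ± 0.07, SE, BH-adjusted p = 0.0125). Markers of B, myeloid, NK and other cell types were low with named exceptions. Of the B cell list, no library had more than 1 count of Ms4a1, but Ighm ranged from 159 to 165 CPM in Mock and from 245 to 275 CPM in FeSO4, and it carried the summed level of the 6 B cell markers (162 to 172 CPM in Mock, 248 to 277 CPM in FeSO4). The sum of the 7 myeloid markers was 89.5 to 99.7 CPM in Mock and 117 to 120 CPM in FeSO4, nearly all of it from Cst3. That of the 3 plasmacytoid dendritic cell markers was 24 to 25.3 CPM in Mock and 37.2 to 45.6 CPM in FeSO4, nearly all of it from Bst2, while the defining Siglech had at most 1 count. Hba-a1, a hemoglobin gene and the erythroid marker found in the table, was at 24.5 and 19.6 CPM in Mock and at 37.5 and 32.5 CPM in FeSO4 and rose by 0.67 ± 0.12 on the log2 scale (SE, BH-adjusted p = 0.000999). Neither Ncr1 nor Klrb1c, which define NK cells, had a count in any library. Mock replicate 1 stood apart in Lyz2, with 164 counts against 8 in Mock replicate 2 and 0 in FeSO4, and in Igkc, with 156 counts against 3 to 8. The part of these markers in the results on the receptors was not tested.

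Gpr15, Ccr4 and Ccr8 rose with FeSO4. Gpr15 rose 4.03-fold, and Ccr4 and Ccr8 rose 1.56-fold and 1.49-fold, both from a high level. The other receptors did not pass the test. The lowest FeSO4 library of these 3 lay above the highest Mock library, a separation that 30.2% of all genes tested had in this direction and 29.3% in the other. By edgeR's quasi-likelihood test, 3 of the 8 receptors tested were higher at an adjusted p under 0.05 and 0 were lower. Of all 13732 genes tested, 19.5% passed in either direction, 10.6% higher and 8.89% lower. At an unadjusted p under 0.05, 3 receptors were higher and 0 lower, and 4393 of 13732 genes passed in either direction. DESeq2 and limma-voom also gave 3 receptors higher and 0 lower at an adjusted p under 0.05. Of all genes, DESeq2 called 1323 higher and 1098 lower, and limma-voom 1450 higher and 1193 lower. The threshold of the study takes an unadjusted p under 0.05 and a change of 0.5 or more in size on the log2 scale. The study set it on DESeq2's Wald test, and here it was set on edgeR's p, so the counts are not the study's. By it, 3 receptors were higher and 0 lower (10% of all genes passed, 4.47% higher and 5.58% lower). Ccr9 was the 1 receptor that the filter on low counts removed, so 8 is not the full family. The median log2 fold change of the 8 was 0.37, against -0.000455 for all genes tested. It was 0.19 without FeSO4 replicate 2, 0.22 without Mock replicate 1 and 0.21 over all genes with at least 1 count, where Ccr9 enters.

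**Figure D1:**
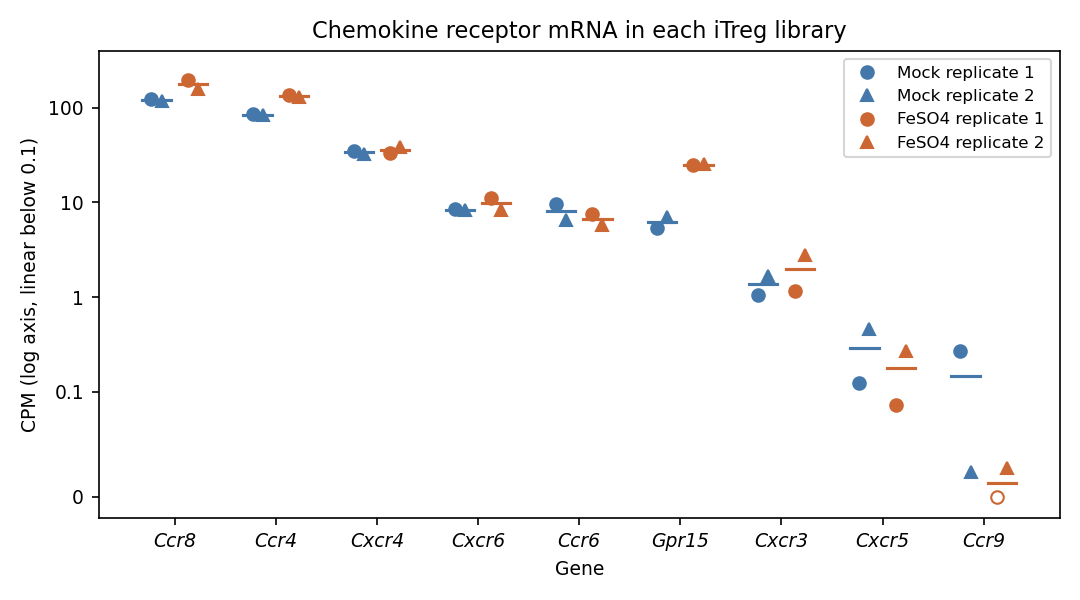
CPM of each of the 9 receptors (x axis) in each library (y axis, logarithmic above 0.1 CPM and linear below), with circles for replicate 1, triangles for replicate 2, an open circle for a count of 0 and bars for the group means. Both FeSO4 points of Gpr15, Ccr4 and Ccr8 lie above both Mock points, and those of the other 6 receptors overlap with Mock.

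Gpr15 encodes a receptor of the chemokine receptor type that guides T cells, regulatory T cells among them, into the large intestine. It was at 5.37 and 7.07 CPM in Mock and at 24.9 and 25.3 CPM in FeSO4 (6.22 ± 1.21 and 25.1 ± 0.254 CPM, SD, n = 2 each). The Mock counts were 218 and 296, and the FeSO4 counts were 854 and 936, so both FeSO4 libraries lay far above the higher Mock library. The log2 fold change was 2.01 ± 0.14 (SE, 95% interval 1.71 to 2.31, adjusted p = 2.47e-07). Its p ranked 17th among 13732 genes. Of all genes tested, 58 had a larger log2 fold change. Gpr15 (ENSMUSG00000047293) lies on chromosome 16 at 58716643 to 58718872 (GRCm38, minus strand). The log2 fold change was between 1.82 and 2.23 when each library was left out in turn, with an adjusted p of at most 2.77e-07 in those fits. The lowest of these came without Mock replicate 1 and the highest without Mock replicate 2, the Mock libraries being farther apart than the FeSO4 libraries.

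Ccr4, the receptor of Ccl17 and Ccl22, was at 85.4 and 84.1 CPM in Mock and at 135 and 129 CPM in FeSO4. The groups were far apart relative to their spread (84.8 ± 0.965 and 132 ± 4.28 CPM, SD, n = 2 each). The log2 fold change was 0.64 ± 0.07 (SE, 95% interval 0.49 to 0.78, adjusted p = 1.55e-05), and 0.61 to 0.67 with each library left out in turn. Ccr4 (ENSMUSG00000047898) lies on chromosome 9 at 114490316 to 114505476 (GRCm38, minus strand). Ccr8, the receptor of Ccl1 and a marker of regulatory T cells in tissues, was at 122 and 117 CPM in Mock and at 198 and 158 CPM in FeSO4 (120 ± 3.45 and 178 ± 27.9 CPM, SD, n = 2 each). FeSO4 replicate 1 was the higher of the FeSO4 libraries, and both were above Mock. The log2 fold change of Ccr8 was 0.57 ± 0.09 (SE, 95% interval 0.39 to 0.76, adjusted p = 0.00035). Leaving out FeSO4 replicate 1 gave 0.41 and leaving out FeSO4 replicate 2 gave 0.73, past the threshold in both fits. Ccr8 (ENSMUSG00000042262) lies on chromosome 9 at 120092133 to 120094906 (GRCm38, plus strand). The interval of Gpr15 did not meet those of Ccr4 and Ccr8, whereas the intervals of Ccr4 and Ccr8 overlapped for most of their length.

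**Figure D2:**
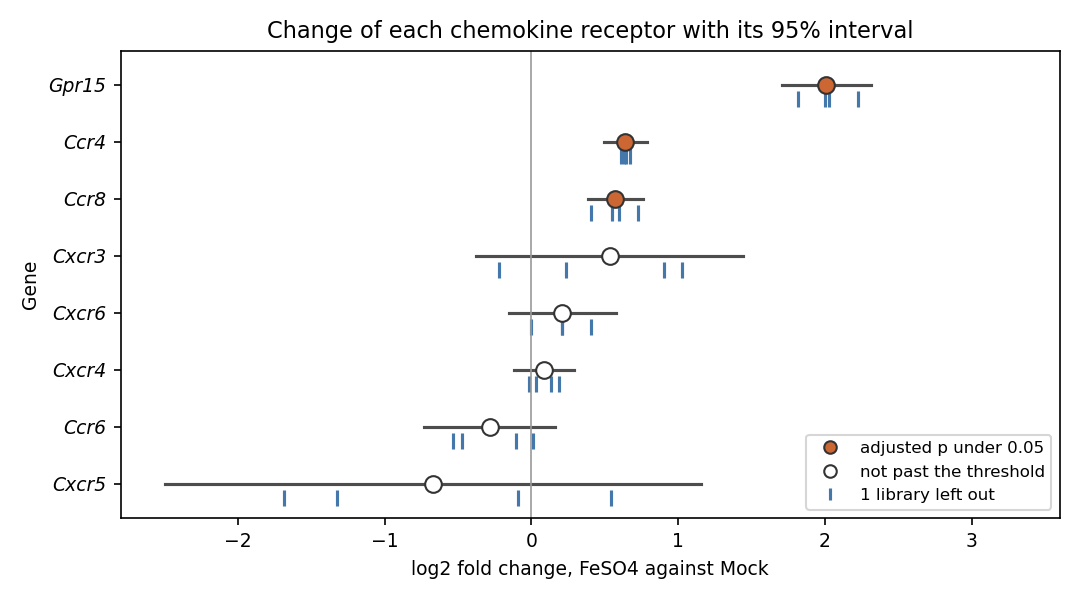
Log2 fold change of FeSO4 against Mock (x axis) for the 8 receptors tested (y axis), with lines for the 95% interval of edgeR's quasi-likelihood fit, filled circles for an adjusted p under 0.05 and ticks for the value with 1 library left out. Gpr15 (2.01), Ccr4 (0.64) and Ccr8 (0.57) keep all ticks above 0, and the ticks of Cxcr3, Cxcr4, Ccr6 and Cxcr5 fall on both sides of 0.

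The sequence ahead of the start sites of the 3 receptors that rose is shown because the study asked about HIF-2α, which binds DNA at the core ACGTG or GCGTG, and because the aryl hydrocarbon receptor, a known activator of Gpr15, binds at GCGTG. RefSeq promoter windows of GRCm38.p6 were at hand for 8 of the 9 receptors, Cxcr5 being the exception. Each sequence holds the 250 bases before the start site on the strand of the gene, at chr16:58718873-58719122 (minus strand) for Gpr15, chr9:114496545-114496794 (minus strand) for Ccr4 and chr9:120091883-120092132 (plus strand) for Ccr8. Capitals mark a match to ACGTG or GCGTG on either strand. The cores share their last 4 letters and were counted apart, and a CACGTG would count on both strands.
Gpr15: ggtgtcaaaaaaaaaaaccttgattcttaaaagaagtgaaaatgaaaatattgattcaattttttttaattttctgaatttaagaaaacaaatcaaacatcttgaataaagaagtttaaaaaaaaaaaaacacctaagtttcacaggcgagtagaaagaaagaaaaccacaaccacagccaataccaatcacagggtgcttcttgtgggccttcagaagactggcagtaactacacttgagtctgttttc
Ccr4: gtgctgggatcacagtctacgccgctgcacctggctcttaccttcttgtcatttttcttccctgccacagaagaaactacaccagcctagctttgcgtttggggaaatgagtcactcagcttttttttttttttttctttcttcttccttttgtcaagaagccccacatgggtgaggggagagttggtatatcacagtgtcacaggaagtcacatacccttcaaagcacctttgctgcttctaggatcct
Ccr8: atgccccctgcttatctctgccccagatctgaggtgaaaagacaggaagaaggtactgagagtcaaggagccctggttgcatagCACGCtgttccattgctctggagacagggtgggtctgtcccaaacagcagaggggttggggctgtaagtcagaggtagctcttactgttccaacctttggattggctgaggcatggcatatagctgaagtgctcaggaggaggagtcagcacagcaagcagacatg
The window of Ccr4 lies inside the gene span given above, ahead of a start site other than the outermost one, and the sequence ahead of the outermost start was not used here. Neither the Gpr15 nor the Ccr4 window had a match to either core. Ccr8 had 1 match to GCGTG, read as CACGC on the strand of the gene and beginning 166 bases before the start. Among receptors that did not pass the test, Cxcr3 and Cxcr4 had 1 match to GCGTG each, at 103 and 39 bases before the start, and the second of 2 windows of Ccr6 had 1 match to ACGTG. Of 32851 windows of this length in the table, 16.6% held ACGTG and 28.2% held GCGTG on either strand. These matches describe letters in a window and not binding.

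Cxcr4 was the highest of the receptors that did not pass. It was at 35.2 and 32.5 CPM in Mock and at 33.3 and 38.4 CPM in FeSO4. The libraries of the groups overlapped, and the log2 fold change was 0.08 ± 0.10 (SE, 95% interval -0.12 to 0.29, adjusted p = 0.602). At this depth the interval leaves room for a change of up to 0.29 on the log2 scale, which is below the interval of Ccr4 and of Ccr8. Cxcr6, the receptor of Cxcl16, was at 8.42 and 8.37 CPM in Mock and at 11.1 and 8.37 CPM in FeSO4. FeSO4 replicate 1 alone was higher, and the log2 fold change was 0.21 ± 0.17 (SE, 95% interval -0.15 to 0.57, adjusted p = 0.43). Without FeSO4 replicate 1 it was 2.55e-06 on the log2 scale, and without FeSO4 replicate 2 it was 0.40. Ccr6, the receptor of Ccl20, was at 9.6 and 6.53 CPM in Mock and at 7.47 and 5.78 CPM in FeSO4. In both groups replicate 1 was above replicate 2, and the groups were not apart (log2 fold change -0.28 ± 0.21, SE, 95% interval -0.73 to 0.16, adjusted p = 0.382).

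Cxcr3, the receptor of Cxcl9, Cxcl10 and Cxcl11, was low. It had 43 and 70 counts in Mock and 40 and 103 counts in FeSO4, or 1.06 and 1.67 CPM against 1.17 and 2.78 CPM. Only FeSO4 replicate 2 exceeded both Mock libraries, and the log2 fold change of 0.53 ± 0.43 (SE, 95% interval -0.38 to 1.44, adjusted p = 0.427) went to -0.22 without that library. Cxcr5 had 5 and 19 counts in Mock and 3 and 10 counts in FeSO4, near the limit of detection (log2 fold change -0.67 ± 0.86, SE, BH-adjusted p = 0.641). Its 95% interval ran from -2.50 to 1.15 and leaves room for a large change in either direction. Ccr9 was not tested: its Mock libraries held 11 and 1 counts, and its FeSO4 libraries held 0 and 1. The 11 counts lay in Mock replicate 1, the library that also held most of the Lyz2 and Igkc reads. Plasmacytoid dendritic cells carry Ccr9, and their marker Siglech had 1 count in that library and 0 in the others. Bst2, also on that marker list, was at 25 and 24 CPM in Mock and at 45.6 and 37.2 CPM in FeSO4. The source of the Ccr9 reads was not tested. Of the receptors for the gut, Gpr15 was thus at 5.37 to 25.3 CPM, and Ccr9 was at no more than 0.271 CPM in any library. The exons of Ccr9 overlap those of Gm17021, Gm17200 and Slc6a20a in GENCODE M1, so reads at Ccr9 are uncertain.

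Levels can be compared between receptors only per length, and RPKM, the CPM per 1000 bases of exon in GENCODE M1, was used for that. In Mock, the order of levels was Ccr8 (104 RPKM), Ccr4 (29.3), Cxcr4 (18.7), Gpr15 (4.82), Cxcr6 (4.43), Ccr6 (4.27), Cxcr3 (0.789), Cxcr5 (0.11) and Ccr9 (0.0458). Within this order the ranges of Gpr15 and Cxcr6, of Cxcr6 and Ccr6, and of Cxcr5 and Ccr9 overlapped, and the other neighbours lay apart. In FeSO4, the order was the same. There Gpr15 (19.5 RPKM) overlapped with Cxcr4 (19.8 RPKM), and lay apart from Cxcr6 (5.14 RPKM) and Ccr6 (3.51 RPKM), which it had overlapped in Mock. The exon models set part of this order. The model of Ccr8 ends soon after its coding region (1156 bases, of which 1062 code), and that of Gpr15 has 1290 bases against a RefSeq gene span of 2230 bases. Per coding length, Gpr15 stood 6th in Mock, after Cxcr6 and Ccr6, and 4th in FeSO4, and the first 3 were the same receptors. Of the summed CPM of the 9 receptors, which is a share of reads and not a level per length, Ccr8 held 43 to 48.2% and Ccr4 31.9 to 35% in each library. Gpr15 made up 2 and 2.74% of that sum in Mock, and 6.06 and 6.86% in FeSO4. The sum itself was 258 to 268 CPM in Mock and 368 to 411 CPM in FeSO4.

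Several transcription factors are known to act on single receptors, and they are given here beside them (the plot of receptors beside linked factors). Whether any of them acted on a receptor in these cells was not tested. Ahr, the aryl hydrocarbon receptor, which drives Gpr15, was at 71.3 and 70 CPM in Mock and at 113 and 87.4 CPM in FeSO4. Its log2 fold change was 0.51 ± 0.10 (SE, BH-adjusted p = 0.00235), and 0.31 without FeSO4 replicate 1, where it lost the threshold (adjusted p = 0.0511). Smad3, which relays TGF-β and also acts on Gpr15, was at 48.6 and 53.7 CPM in Mock and at 51.2 and 50 CPM in FeSO4 (log2 fold change -0.02 ± 0.08, SE, BH-adjusted p = 0.926). Gata3, the factor of type 2 helper cells, which carry Ccr4 and Ccr8, fell in FeSO4 (log2 fold change -0.27 ± 0.09, SE, BH-adjusted p = 0.039) while both receptors were higher. The call on Gata3 was lost without Mock replicate 1, Mock replicate 2 or FeSO4 replicate 1, with log2 fold changes from -0.36 to -0.17 over all 4 such fits.

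Tbx21, which encodes T-bet, the activator of Cxcr3, had 60 and 55 counts in Mock and 191 and 153 counts in FeSO4. It rose by 1.79 ± 0.28 on the log2 scale (SE, BH-adjusted p = 0.000498), and Cxcr3 did not pass the test. In FeSO4, replicate 1 was the higher library for Tbx21 and replicate 2 the higher library for Cxcr3. Bcl6, the factor of Cxcr5-bearing follicular cells, had 82 to 192 counts (log2 fold change -0.32 ± 0.29, SE, BH-adjusted p = 0.486). Rara, the retinoic acid receptor through which Ccr9 is induced, was lower by -0.27 ± 0.07 on the log2 scale (SE, BH-adjusted p = 0.0132), a call that was lost without FeSO4 replicate 1 (adjusted p = 0.175). The mRNA of Hif1a, whose protein acts on Cxcr4, rose by 0.49 ± 0.07 on the log2 scale (SE, BH-adjusted p = 0.000276), and Cxcr4 did not pass the test. In iTreg cells treated with iron for a shorter time, the paper reports more HIF-2α protein but not more HIF-1α protein. The mRNA value is therefore not a measure of HIF-1α protein.

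**Figure D3:**
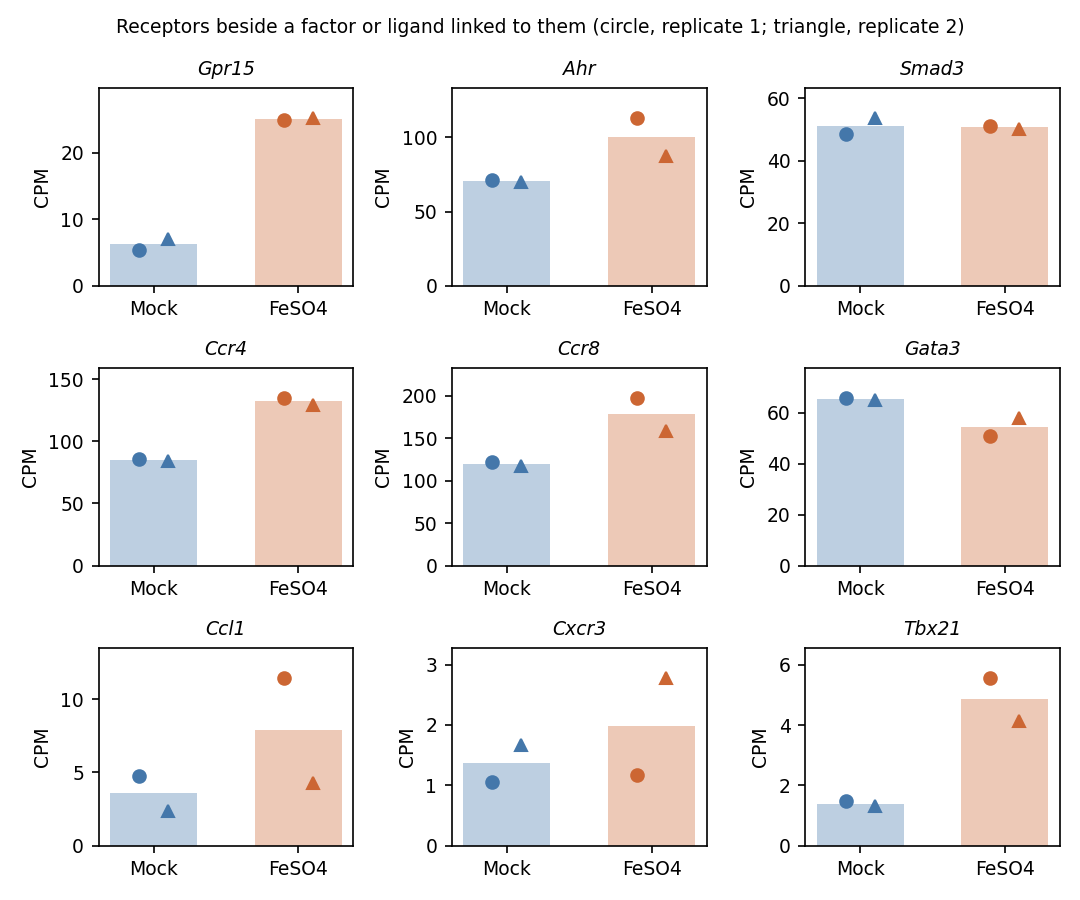
CPM (y axes, from 0) in Mock and FeSO4 (x axes) of receptors and of factors or a ligand linked to them, with bars for the group mean, circles for replicate 1 and triangles for replicate 2. Gpr15, Ahr, Ccr4, Ccr8 and Tbx21 have both FeSO4 libraries above both Mock libraries, Gata3 has both below, and Smad3, Ccl1 and Cxcr3 overlap.

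The rest of the receptor family was mostly silent. Of 15 other chemokine receptors and atypical receptors, 3 passed the filter on low counts, and the other 12 had at most 14 counts in any library. Ccr7, which brings naive and central T cells into lymph nodes, was the most abundant of the 3, at 347 and 324 CPM in Mock and at 272 and 295 CPM in FeSO4. Per length, it stood at 170 RPKM in Mock and 143 RPKM in FeSO4, beside 104 and 154 RPKM for Ccr8. In FeSO4 their ranges overlapped (138 to 149 RPKM for Ccr7, 137 to 171 RPKM for Ccr8), and the exon model of Ccr8 is shorter (1156 against 1978 bases). Both FeSO4 libraries of Ccr7 were below both Mock libraries, opposite to Gpr15, Ccr4 and Ccr8 (log2 fold change -0.24 ± 0.07, SE, BH-adjusted p = 0.0168). The call was lost without Mock replicate 1 (adjusted p = 0.0694) and without FeSO4 replicate 1 (adjusted p = 0.193), with the direction kept in each of the 12 alternatives. Cx3cr1, the receptor of fractalkine, was at 13 and 12.1 CPM in Mock and at 14.7 and 14 CPM in FeSO4 (log2 fold change 0.20 ± 0.13, SE, BH-adjusted p = 0.318). Ccrl2, which binds a chemoattractant without signaling, had 50 to 105 counts (-0.25 ± 0.36, SE, BH-adjusted p = 0.688). No member of this list was higher by edgeR at an adjusted p under 0.05 or at an unadjusted p under 0.05, nor by DESeq2 or limma-voom.

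Ligands of the receptors were at low levels in these cells. Of 21 ligands, 19 matched a gene ID, 9 were tested, and the other 10 had at most 11 counts in any library. Among those 10 were Ccl17 and Ccl22 (ligands of Ccr4), Ccl20 (of Ccr6), Cxcl9 and Cxcl11 (of Cxcr3), Cxcl12 (of Cxcr4) and Cxcl13 (of Cxcr5). Of the 9, 4 were higher and 0 lower at an adjusted p under 0.05, against 10.6% of all genes higher and 8.89% lower. At an unadjusted p under 0.05 the ligand counts were 4 and 1, and 4393 of 13732 genes passed in either direction (DESeq2 and limma-voom called 3 higher and 0 lower each). Ccl1, the ligand of Ccr8, had 193 and 100 counts in Mock and 393 and 159 counts in FeSO4. In both groups replicate 1 was the higher library, and FeSO4 replicate 2 was below Mock replicate 1, so the groups overlapped in counts, while FeSO4 was the higher library within each replicate number (log2 fold change 1.14 ± 0.37, SE, BH-adjusted p = 0.0414). Ccl3, Ccl4 and Ccl5, which attract effector T cells and monocytes, were higher by 1.47 ± 0.44, 1.43 ± 0.34 and 1.20 ± 0.32 on the log2 scale (SE, BH-adjusted p = 0.0276, 0.00864 and 0.0162), at 28 to 169 counts per library. With 1 library left out, the log2 fold change ran from 0.27 (without FeSO4 replicate 1) to 1.71 (without Mock replicate 1) for Ccl1, from 0.89 (without Mock replicate 2) to 2.45 (without Mock replicate 1) for Ccl3, from 1.08 to 1.88 for Ccl4 and from 1.11 to 1.29 for Ccl5. Besides the fits named next, the call on Ccl1 was lost by DESeq2, by limma-voom and with library size only as the scaling and kept in the other alternatives (adjusted p over its alternatives from 2.79e-06 to 0.674). None of the 4 ligand calls held without Mock replicate 2 or without FeSO4 replicate 1, where 0 ligands were higher at an adjusted p under 0.05, and that of Ccl5 was also lost without FeSO4 replicate 2 (adjusted p = 0.0549). Ccl25, the ligand of Ccr9, and Cxcl16, the ligand of Cxcr6, did not pass (adjusted p = 0.511 and 0.575).

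**Figure D4:**
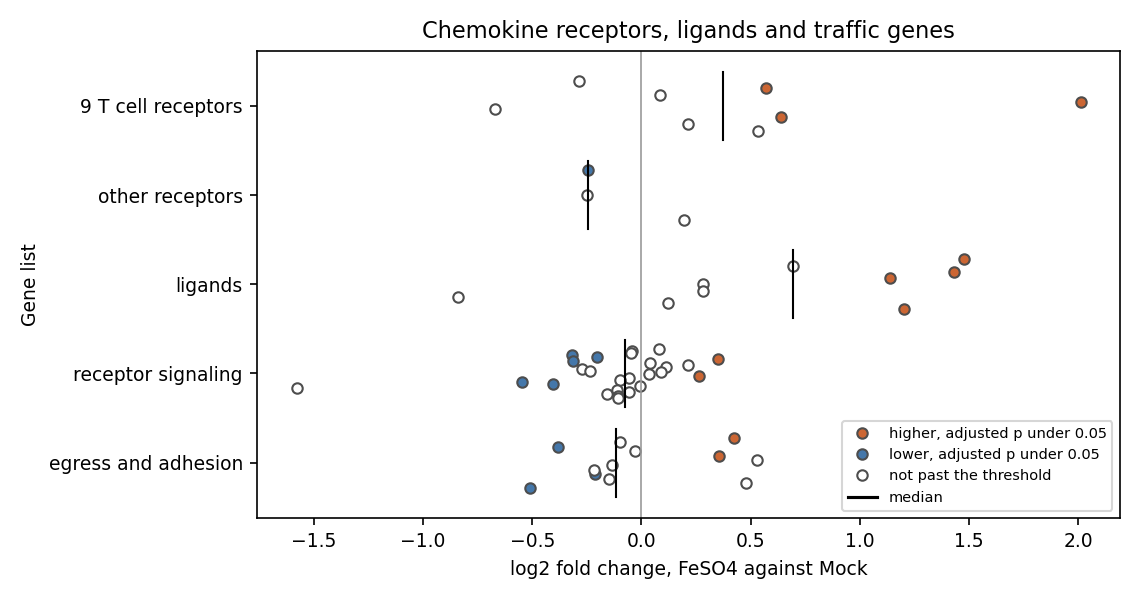
Log2 fold change of FeSO4 against Mock (x axis) for each tested gene of 5 lists (y axis), with filled circles for an adjusted p under 0.05 (orange higher, blue lower), open circles for genes that did not pass and a bar for the median. Gpr15 at 2.01 is the largest value shown, and the median is 0.37 for the 9 T cell receptors (8 tested) and -0.08 for the signaling genes.

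The genes that carry the receptor signal all passed the filter on low counts, and most of them did not pass the test. Of 26 signaling genes, all tested, 2 rose and 5 fell (26.9%, against 19.5% of all genes), and the median log2 fold change was -0.08. Prex1, a Rac exchange factor that the βγ subunits and phosphoinositides activate, was at 312 and 313 CPM in Mock and at 210.3 and 217 CPM in FeSO4. It fell by 0.55 ± 0.06 on the log2 scale (SE, BH-adjusted p = 2.13e-05). Pik3cg, the catalytic subunit of phosphoinositide 3-kinase γ, rose by 0.35 ± 0.07 (SE, BH-adjusted p = 0.0026), whereas Pik3r5, its regulatory subunit, was lower by -0.32 ± 0.08 (SE, BH-adjusted p = 0.0134). Without FeSO4 replicate 2, the adjusted p of Pik3r5 was 0.148. Rgs10, which speeds the shut-off of G proteins, was higher by 0.26 ± 0.07 (SE, BH-adjusted p = 0.0123), a call lost without FeSO4 replicate 2 and with library size only as the scaling (highest adjusted p = 0.155). The inhibitory G protein subunits Gnai2 and Gnai3 and the kinase Grk2 did not pass (adjusted p = 0.533, 0.396 and 0.687). The 5 lower calls became 2 without Mock replicate 2 or without FeSO4 replicate 1, and 3 without FeSO4 replicate 2.

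Of 12 genes for exit from lymphoid tissue and for adhesion, all tested, 2 rose and 3 fell (41.7%, against 19.5% of all genes; median log2 fold change -0.12). Klf2, the factor that maintains S1pr1 in resting T cells, was at 270 and 257 CPM in Mock and at 165 and 206 CPM in FeSO4 and fell by 0.51 ± 0.08 on the log2 scale (SE, BH-adjusted p = 0.000748). Foxo1, one of the linked factors, which acts on Klf2 and Ccr7 and is not counted among the 12, was lower by -0.32 ± 0.07 (SE, BH-adjusted p = 0.00314). Cd44, the hyaluronan receptor of activated T cells, was at 91.2 and 86.3 CPM in Mock and at 123 and 116 CPM in FeSO4 and rose by 0.42 ± 0.07 (SE, BH-adjusted p = 0.000763). Fut7, the fucosyltransferase that makes selectin ligands, was higher by 0.36 ± 0.08 (SE, BH-adjusted p = 0.0061), and its adjusted p was 0.0532 without FeSO4 replicate 2. Cd69 was lower by -0.38 ± 0.10 (SE, BH-adjusted p = 0.0131), a call lost by DESeq2 (adjusted p = 0.219) and without Mock replicate 2, where the value was -0.17 (edgeR adjusted p = 0.188). S1pr1, the receptor that lets T cells leave lymph nodes, was lower by -0.21 ± 0.06 (SE, BH-adjusted p = 0.032), a call lost when Mock replicate 1, Mock replicate 2 or FeSO4 replicate 1 was left out, with values from -0.22 to -0.14.

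Genes whose pattern over the 4 libraries was most like that of Gpr15 were sought. The search covered 8520 other tested genes that averaged 10 CPM or more, by the Euclidean distance of centered log2 CPM. The 3 nearest were Scd1, Gbp2 and Scd2, at distances of 0.155, 0.198 and 0.307, with log2 fold changes of 1.86, 2.04 and 1.73. Scd1 and Scd2 encode stearoyl-CoA desaturases and Gbp2 an interferon-induced GTPase. None of the 8 receptors tested from the chosen 9 was called lower, so the second search was for Ccr8, the one with the smallest of the 3 called increases. Its nearest were Gbp8, Atcay and Tspan5, at distances of 0.041, 0.0479 and 0.0786 and with log2 fold changes of 0.58 to 0.62. With 4 libraries such a likeness describes little beyond the size of the change and the order of the FeSO4 libraries.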

How the data were processed

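Raw read counts per Ensembl gene for 4 libraries were deposited by the authors, not normalized. The submitters' processing notes name Trim Galore 0.6.7, STAR 2.7.9a, featureCounts and mm10, whereas the methods name STAR and mm9, and the strand setting is not given in the sources used here. The counts carry no coordinates, so positions are those of GRCm38 for orientation. The 5 closing rows of unassigned reads (15.9 to 17.3% of each column) entered neither library sizes nor tests. Symbols were found for 32799 of 47729 IDs. No column of another sample was present.

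The test was the quasi-likelihood F test of edgeR 4.0.16 (R 4.3.3) on genes kept by filterByExpr (13732), with TMM scaling and BH adjustment over these genes. SE is the size of the log2 fold change divided by the square root of F, and 95% intervals use the t distribution with 15.3 degrees of freedom. RPKM and CPM were computed here. Alternatives were DESeq2 1.42.0, limma-voom (limma 3.58.1), other scalings, other filters, a replicate block and each library left out in turn. Replicates were not within sampling noise (chi-square per degree of freedom 12.1 for Mock and 9.57 for FeSO4). The methods give the libraries as pairs from independent experiments, so the spread between replicates is that between experiments. On counts simulated from the genes kept, of which 13490 passed the filter, 43.5, 67.7 and 87.7% of genes changed by 0.5, 1 and 2 on the log2 scale were called, with 10 unchanged genes called.

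The receptors and lists were chosen with earlier results of these data known. Named are all 9 receptors, other receptors of the family that were tested, the linked factors, up to 4 genes of smallest p per other list and the genes of nearest pattern. Gnai2, Gnai3, Grk2, S1pr1, Ccl25, Cxcl16 and the untested ligands are outside this rule and were chosen after their values were seen. Some members of these lists are not reported here.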

Additional observations from a re-analysis of the deposited data

How the results depend on the processing

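The 3 receptor calls were made in each alternative run, the replicate block among them, with 0 receptors called lower. The median log2 fold change of the receptors, 0.37, was 0.21 over all genes with at least 1 count, 0.53 with at least 10 counts in every library (these filters change which receptors enter) and 0.19 to 0.54 with 1 library left out. With 1 library left out, the value ran from -0.53 to 0.013 for Ccr6, -1.69 to 0.54 for Cxcr5, -0.22 to 1.03 for Cxcr3 and -0.020 to 0.19 for Cxcr4. The signs turned without Mock replicate 1 for Ccr6, without Mock replicate 2 for Cxcr5 and without FeSO4 replicate 2 for Cxcr3 and Cxcr4. In the same fits, 0 to 1 other receptors were lower (0 without Mock replicate 1 or FeSO4 replicate 1), 0 to 4 ligands were higher and 0 to 1 lower, 1 to 2 signaling genes were higher and 2 to 4 lower, and 1 to 2 egress and adhesion genes were higher and 2 to 5 lower. Of all genes, 927 to 1159 were higher and 799 to 1030 lower, the lowest counts being without FeSO4 replicate 1. In a fit that lacks a library, the lone one of its group is assumed to vary like the other group. With library size only as the scaling, 1 signaling gene was higher, 6 egress and adhesion genes were lower, and 939 genes in all were higher, 34.9% of calls against 54.4% with TMM (47.7% with the upper quartile); the median of all genes moved by -0.0649. With the replicate block, 1 ligand and 5 egress and adhesion genes were lower, and 1743 genes in all were higher and 1467 lower, against 1455 and 1221, and the adjusted p of Ccl1 was 0.00146. Deviations of same-numbered libraries correlated across genes at 0.0293 over all genes tested and at 0.22 over those averaging 10 CPM or more. The methods speak of pairs from independent experiments, but the labels do not say that the number pairs the libraries. At the threshold of the study, set on edgeR's p, 0 other receptors and 1 ligand were lower. For signaling genes 0 were higher and 2 lower, and for egress and adhesion genes 0 were higher and 1 lower. Of all genes, 614 were higher and 766 lower. At an adjusted p under 0.01, 0 other receptors were lower, 1 ligand was higher, 1 signaling gene was higher and 1 lower, 1 egress and adhesion gene was lower, and 755 genes in all were higher and 584 lower. The causes were not tested. Depth limits Cxcr5 and Ccr9, with at most 19 and 11 counts in a library.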
